A study of Homo sapiens with 9 samples.

Results

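The genes described here are 32 genes of cholesterol and fatty acid synthesis, out of 23369 genes in the deposited table. They were taken by gene symbol from a list of genes under the control of the sterol regulatory element-binding proteins (SREBPs), and all 32 had an entry, SC5D under its older symbol SC5DL. By role they were 4 regulators, 7 enzymes from acetoacetyl-CoA to farnesyl diphosphate, 11 enzymes from squalene to cholesterol, 1 sterol transfer protein and 9 enzymes of fatty acid synthesis, desaturation and elongation. Their RNA was measured in NCI-H1155, an established line of human lung cancer cells that has neuroendocrine traits. Cells received 1 µM foretinib (libraries 1, 2 and 4), 1 µM cabozantinib (libraries 3, 4 and 5) or the vehicle DMSO (libraries 2, 4 and 5), each for 4 h. Each of the 3 groups held 3 libraries, and the plating time was the same in all of them. Both compounds inhibit several kinases, MET and KDR among them. In structure, foretinib differs from cabozantinib by an added fluorine on its middle phenyl ring and by a morpholinopropoxy chain that replaces a methoxy group of the quinoline. All groups are of 1 cell line, and the only comparison of compounds was this pair at matched dose and time.

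Cells make cholesterol from acetyl-CoA through mevalonate, farnesyl diphosphate and squalene, and make fatty acids from the same acetyl-CoA. The SREBPs are transcription factors that are made as membrane proteins of the endoplasmic reticulum and are bound there to SCAP. When sterols are scarce, SCAP carries them to the Golgi, where proteases release the active part. When sterols are plentiful, INSIG proteins hold SCAP back. SREBP2, from SREBF2, is known mainly for sterol genes and SREBP1, from SREBF1, mainly for fatty acid genes. Both bind sterol regulatory elements, usually beside other factors such as NF-Y, which binds CCAAT boxes. INSIG1 and SREBF2 are themselves known targets of the pathway.

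Promoter sequence is shown for 4 genes whose values are described below. The stretches lie upstream of the gene start on the plus strand of GRCh38.p14 and come from RefSeq. They are given 5′ to 3′ at chr22:41832955-41833024 for SREBF2, chr10:100346983-100347072 for SCD, chr4:165327469-165327643 for MSMO1 and chr7:155297698-155297837 for INSIG1. Capitals mark TCACNCCAC, a form of the sterol regulatory element in which N is any base, CCAAT on either strand, and CACGTG, an E-box. TCACNCCAC lies only in the SREBF2 stretch, and the capitals in the other stretches mark only CCAAT or CACGTG. Other forms of the element were not searched.
SREBF2: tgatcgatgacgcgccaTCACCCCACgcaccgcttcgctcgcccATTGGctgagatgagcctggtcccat
SCD: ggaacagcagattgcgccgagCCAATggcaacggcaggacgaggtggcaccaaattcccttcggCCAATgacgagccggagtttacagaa
MSMO1: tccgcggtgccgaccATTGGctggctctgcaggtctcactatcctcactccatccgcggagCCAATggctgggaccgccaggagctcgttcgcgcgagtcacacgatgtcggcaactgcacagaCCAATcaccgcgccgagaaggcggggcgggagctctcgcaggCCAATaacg
INSIG1: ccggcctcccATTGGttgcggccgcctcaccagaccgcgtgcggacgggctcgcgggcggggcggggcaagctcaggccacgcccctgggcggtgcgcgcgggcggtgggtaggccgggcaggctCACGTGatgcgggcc

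Across the gene set, 28 of the 32 genes had RefSeq promoters, 38 in all. ACAT2, SQLE, FASN and FDFT1 had no entry. The 250 bases before each start were searched on both strands. CCAAT was present in 25 of the 38 promoters (65.8%), of 21 of the 28 genes, and in 32.01% of all 35116 promoters of the table. CACGTG was present in 5 of the 38 (13.2%), of ELOVL5, INSIG1, SC5D and SCAP, and in 6.34% of all. TCACNCCAC was found in 1 of the 38 (2.63%), that of SREBF2, and in 0.883% of all promoters. These counts describe the letters in the windows and are no measure of binding.

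Values are normalised read counts, and a value with an error is a mean ± SD over the 3 libraries of a group. The libraries held 26996023 to 34062153 gene-assigned reads with foretinib, 27264766 to 27522332 with cabozantinib and 27257862 to 32986439 with DMSO. Genes above 0 numbered 10556 ± 319 with foretinib, 12679 ± 127 with cabozantinib and 12311 ± 568 with DMSO. Of the 12642 tested genes, 16.3% to 21.0% were at 0 in the foretinib libraries, 4.41% to 5.48% in the cabozantinib libraries and 5.30% to 10.9% in the DMSO libraries. All 10 neuroendocrine markers were above 0 in every library. Their summed level was 72940.2 to 80430.2 with foretinib, 73929.7 to 80208.9 with cabozantinib and 64203 to 70165.5 with DMSO, and its part in the results below was not tested. The 4 hepatocyte markers (ALB, APOA1, APOC3 and TTR) and ADIPOQ, FABP4 and LEP of 4 adipocyte markers were at 0 in every library. PTPRC, CD3E and CD14 of leukocytes, CDH5, VWF and KDR of endothelium, COL3A1, DCN and PDGFRB of 6 fibroblast markers and KRT19 of 5 epithelial markers were also at 0 throughout. The other markers of these lists were not all at 0. The 5 epithelial markers summed to 2603 to 5109 with foretinib, 4271 to 6674 with cabozantinib and 3962 to 6554 with DMSO, mostly from the keratins KRT8 and KRT18, which were above 0 in every library. The fibroblast list, almost all COL1A1 and COL1A2, summed to 869 to 1194 with foretinib, 767 to 1049 with cabozantinib and 453 to 1345 with DMSO. The leukocyte list, here CD68 and LYZ, summed to 9.87 to 755 with foretinib, 174 to 299.7 with cabozantinib and 4.89 to 228 with DMSO. Endothelial and adipocyte sums stayed at 0 with foretinib, at most 53.2 and 0 with cabozantinib and at most 87.4 and 92.02 with DMSO. In bulk RNA, fewer cells of a type and less RNA per cell cannot be told apart. The labels speak of biological triplicates without naming separate cultures, so p-values measure the spread between these libraries. In the main fit that spread was estimated for each gene from all 9 libraries together. The more variable foretinib libraries therefore also enter the intervals and p-values for cabozantinib against DMSO, and a high p there does not show that a difference is absent.

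No gene of the set differed between groups at an adjusted p below 0.05 in limma, and neither did any of the 12642 tested genes (0%), in any of the 3 comparisons. The 32 genes together held 0.360% to 0.434% of each library's normalised count. Their summed level averaged 118186 ± 7005 with foretinib, 105682 ± 8688 with cabozantinib and 105909 ± 5563 with DMSO. Levels of different genes were compared per kilobase of exon, using GENCODE 29 gene lengths. On this per-kilobase scale in DMSO, SCD stood highest at 2414 ± 274. ACLY at 1652 ± 108, FADS1 at 1576 ± 162 and HMGCS1 at 1524 ± 298 followed, per kilobase in DMSO, and lay within their SDs of each other. At the low end of the per-kilobase scale in DMSO stood MVK at 21.3 ± 32.8, MVD at 41.7 ± 36.6, ACSS2 at 44.1 ± 36.2 and HSD17B7 at 44.2 ± 59.9, also within their SDs of each other.

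**Figure D1:**
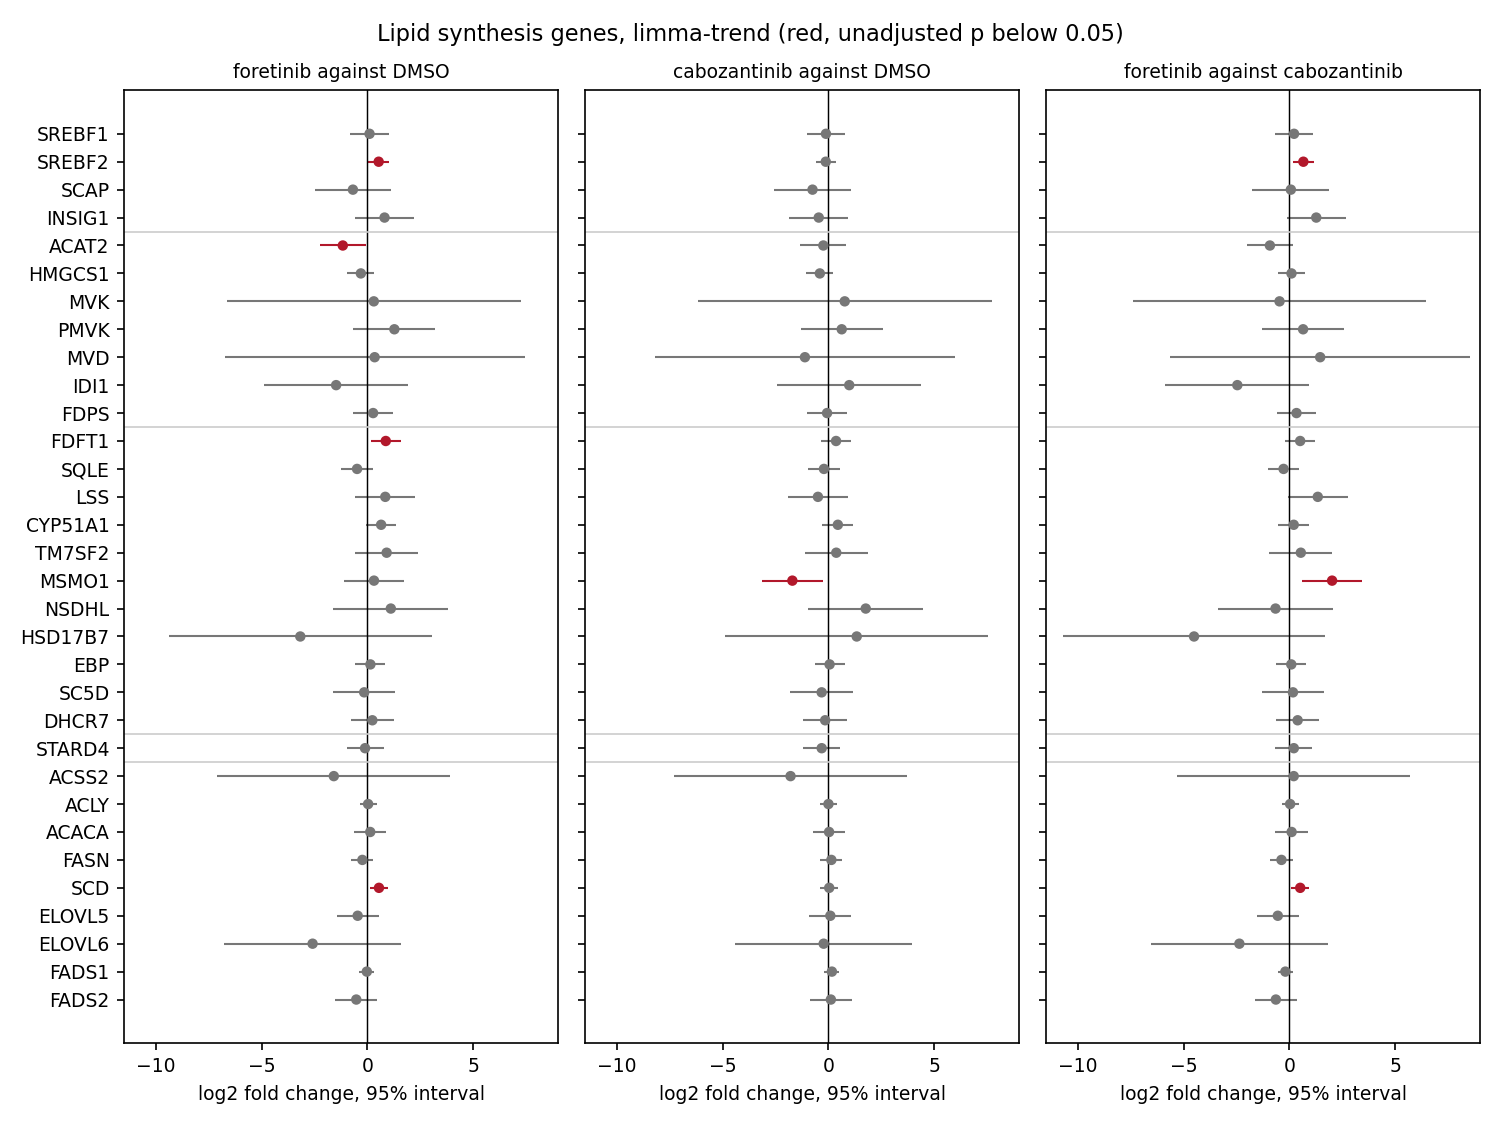
Log2 fold changes of the 32 genes with 95% intervals from limma, on the log2(value + 1) scale, for foretinib against DMSO, cabozantinib against DMSO and foretinib against cabozantinib; red marks an unadjusted p below 0.05. No gene passed the adjusted threshold, 4, 1 and 3 genes are red in the 3 panels, and the intervals of low genes such as MVK and MVD are the wide ones.

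For foretinib against DMSO, 3 of the 32 genes were higher at an unadjusted p below 0.05 (SREBF2, FDFT1 and SCD), where 2.17% of all tested genes were, and 1 was lower (ACAT2), where 6.9% of all tested genes were. Groups did not overlap, with foretinib higher, for SREBF2 and SCD, as for 3.99% of all tested genes, and no gene of the set lay lower without overlap, as 7.69% of all tested genes did. The count of 4 depended on single libraries. It was 1 without foretinib replicate 1, 2 without foretinib replicate 2, 7 without foretinib replicate 4, 2 without DMSO replicate 4 and 0 without DMSO replicate 5. The median log2 fold change of the 32 genes was 0.12, with 18 positive and 14 negative. Over all tested genes the median was -0.34, and over the 5488 genes at a mean of 1000 or more it was -0.03.

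For cabozantinib against DMSO, no gene of the set was higher at an unadjusted p below 0.05, against 0.878% of all tested genes, and MSMO1 was lower, against 0.435% of all. IDI1 was higher without overlap, as 5.18% of all tested genes were, and MSMO1 lower without overlap, as 4.71% were. The median log2 fold change was -0.03 over the 32 genes, with 16 positive and 16 negative, and 0.04 over all tested genes. The call for MSMO1 was not made without cabozantinib replicate 3 or without cabozantinib replicate 5.

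For foretinib against cabozantinib, SREBF2, MSMO1 and SCD were higher at an unadjusted p below 0.05, 3 of 32 genes where 1.83% of all tested genes were, and no gene of the set was lower, where 8.08% of all were. SREBF2, LSS and MSMO1 were higher without overlap between the groups, as 4.49% of all tested genes were, and no gene of the set was lower without overlap, as 9.7% of all were. The median log2 fold change was 0.13 over the 32 genes, with 21 positive and 11 negative, and -0.44 over all tested genes. At a mean of 1000 or more the median over all genes was -0.04. The count of 3 was 6 without foretinib replicate 1, 9 without foretinib replicate 4 and 1 without cabozantinib replicate 5. The 3 comparisons share libraries, so their values stand side by side and are not independent of each other.

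Of the regulators, SREBF2 had the clearest difference. Its normalised count was 7054, 6526 and 6204 in the foretinib libraries, 4538, 4623 and 3466 in the cabozantinib libraries and 4994, 4583 and 4130.0 in the DMSO libraries. Every foretinib library lay above the other 6, and the cabozantinib and DMSO libraries overlapped. SREBF2 averaged 6595 ± 429 with foretinib, 4209 ± 645 with cabozantinib and 4569 ± 432 with DMSO. For foretinib against DMSO the log2 fold change of SREBF2 was 0.53 (95% interval 0.05 to 1.01, limma adjusted p = 0.528). For foretinib against cabozantinib it was 0.66 (0.18 to 1.14, limma adjusted p = 0.393), and for cabozantinib against DMSO it was -0.13 (-0.61 to 0.36). Both foretinib fold changes of SREBF2 kept their direction without any 1 library, at 0.46 to 0.60 against DMSO and at 0.52 to 0.73 against cabozantinib.

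The partner gene SREBF1 did not separate the groups. It was at 9596, 10493 and 2908 in the foretinib libraries, 4636, 7134 and 5639 in the cabozantinib libraries and 7772, 7664 and 3996 in the DMSO libraries. The highest and the lowest values were both in foretinib, and all groups overlapped. The log2 fold change of SREBF1 was 0.10 for foretinib against DMSO (-0.81 to 1.01), -0.12 for cabozantinib against DMSO (-1.03 to 0.79) and 0.22 for foretinib against cabozantinib (-0.70 to 1.13). Per kilobase, SREBF1 averaged 955 ± 516 and SREBF2 873 ± 56.8 with foretinib. With DMSO the per-kilobase levels were 807 ± 268 for SREBF1 and 605 ± 57.2 for SREBF2, and in neither group did the genes differ by more than the sum of their SDs. SREBF1 shares 556 bases of exon with the gene RAI1 on the opposite strand in GENCODE 29, and SREBF2 shares 280 bases with SREBF2-AS1.

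INSIG1, the retention factor, was at 1326, 3020.2 and 851 in the foretinib libraries, 382, 716 and 889.9 in the cabozantinib libraries and 635, 936 and 1064 in the DMSO libraries. Foretinib 1 and 2 were above every other library, and foretinib 4 was among the rest. In log2 fold change INSIG1 was at 0.81 for foretinib against DMSO (-0.58 to 2.201), -0.46 for cabozantinib against DMSO (-1.85 to 0.93) and 1.27 for foretinib against cabozantinib (-0.12 to 2.66, limma adjusted p = 0.519). SCAP, the escort protein, was at 171, 1035 and 1746 in the foretinib libraries, 657, 1019 and 403 in the cabozantinib libraries and 897, 1275 and 1134 in the DMSO libraries. The foretinib values of SCAP enclosed those of both other groups. SCAP had the smallest p of the regulators for cabozantinib against DMSO, with a log2 fold change of -0.75 (-2.57 to 1.06, limma adjusted p = 1.00).

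**Figure D2:**
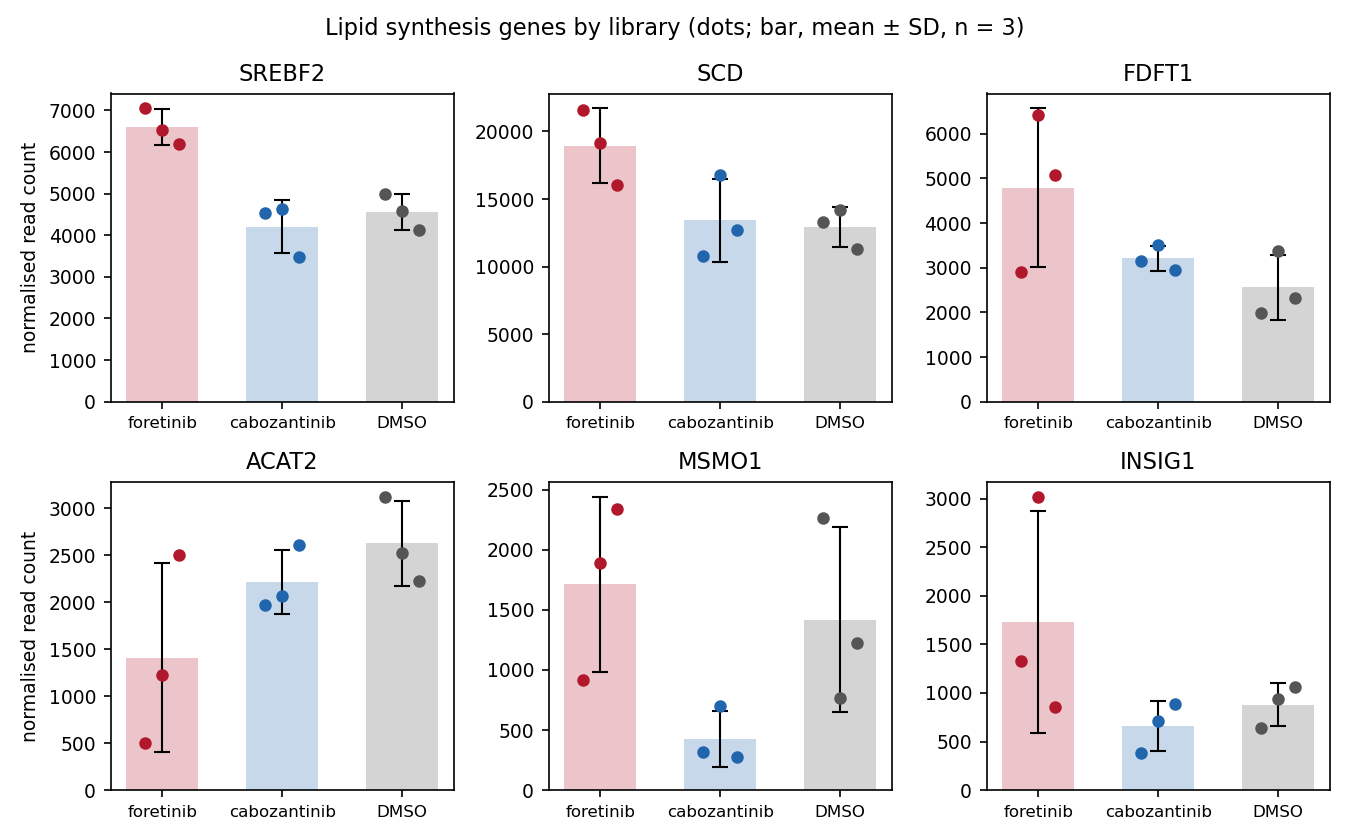
Normalised read count of SREBF2, SCD, FDFT1, ACAT2, MSMO1 and INSIG1 in each library, with the group mean ± SD (n = 3), in the order foretinib, cabozantinib, DMSO. SREBF2 with foretinib lies above all 6 other libraries, MSMO1 with cabozantinib lies below all 6 others, and ACAT2 and FDFT1 spread widely within foretinib.

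In the mevalonate segment, ACAT2, the cytosolic thiolase that makes acetoacetyl-CoA, had the smallest p with foretinib. Its count was 506, 1228 and 2496 in the foretinib libraries, 1974, 2065 and 2607 in the cabozantinib libraries and 3121, 2524 and 2228 in the DMSO libraries. Foretinib 1 and 2 lay below every other library, while foretinib 4 lay inside the range of the other groups. For ACAT2 the log2 fold change was -1.17 for foretinib against DMSO (-2.25 to -0.08, limma adjusted p = 0.528) and -0.92 for foretinib against cabozantinib (-2.01 to 0.16, limma adjusted p = 0.526). Without foretinib replicate 1 these became -0.57 and -0.33. Exons of ACAT2 overlap those of SOD2-OT1, SOD2 and TCP1 on the opposite strand in GENCODE 29. The overlaps with each gene add to 2996 bases, in which bases shared by several of them may count more than once. The strand setting of the counting is not given in the sources used here, so reads of these genes may be mixed.

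HMGCS1, the cytosolic HMG-CoA synthase and the most abundant of the 7 per kilobase, was at 3562, 7805 and 6696 in the foretinib libraries, 6568, 5299.7 and 4377 in the cabozantinib libraries and 8783, 6373 and 6346 in the DMSO libraries. All 3 groups overlapped, with the lowest value in foretinib 1. HMGCS1 had the smallest p of the segment for cabozantinib against DMSO, at a log2 fold change of -0.41 (-1.04 to 0.23, limma adjusted p = 1.00). For foretinib against DMSO it was -0.31 (-0.95 to 0.32).

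IDI1, the isopentenyl diphosphate isomerase, was at 701, 460.0 and 6.27 in the foretinib libraries, 826, 765 and 624 in the cabozantinib libraries and 497, 283 and 360.2 in the DMSO libraries. The cabozantinib libraries lay above all DMSO libraries, and foretinib 4 was near 0. The log2 fold change of IDI1 for cabozantinib against DMSO was 0.98 (-2.42 to 4.39), a wide interval that includes both directions. The spread behind this interval was estimated from all 9 libraries, foretinib 4 among them, although foretinib is not in this comparison. FDPS, farnesyl diphosphate synthase, averaged 2167 ± 751 with foretinib, 1679 ± 419 with cabozantinib and 1787 ± 563 with DMSO. PMVK, the phosphomevalonate kinase, averaged 1342 ± 1039.7 with foretinib, 792 ± 640.0 with cabozantinib and 444 ± 179.8 with DMSO. Neither FDPS nor PMVK separated any groups. The kinase MVK and the decarboxylase MVD were low, with a mean of at most 426 in any group and with values at 0 among them. For MVK and MVD no difference was detectable, the intervals reaching more than 5 log2 units in both directions.

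In the segment from squalene to cholesterol, FDFT1, squalene synthase, had the smallest p for foretinib against DMSO. It was at 2898, 6419 and 5069 in the foretinib libraries, 3159, 3514 and 2958 in the cabozantinib libraries and 1983, 3378 and 2317 in the DMSO libraries. Foretinib 2 and 4 were above every other library, while foretinib 1 was below DMSO 4 and all cabozantinib libraries. For FDFT1 the log2 fold change was 0.87 for foretinib against DMSO (0.15 to 1.59, limma adjusted p = 0.497), 0.36 for cabozantinib against DMSO (-0.36 to 1.08) and 0.51 for foretinib against cabozantinib (-0.22 to 1.23). It ranged between 0.62 and 1.19 for foretinib against DMSO with each library left out in turn.

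MSMO1, the methylsterol monooxygenase, had lower counts with cabozantinib than in both other groups. It was at 913, 1892 and 2335 in the foretinib libraries, 314, 698 and 276 in the cabozantinib libraries and 2264, 763 and 1224 in the DMSO libraries. Each cabozantinib library lay below each of the other 6, though cabozantinib 4 was close to DMSO 4. For MSMO1 the log2 fold change was -1.71 for cabozantinib against DMSO (-3.14 to -0.28, limma adjusted p = 1.00) and 2.02 for foretinib against cabozantinib (0.59 to 3.45, limma adjusted p = 0.393). For foretinib against DMSO it was 0.31 (-1.12 to 1.74). In means this was 3.30-fold less with cabozantinib than with DMSO. With DESeq2 on recovered reads, MSMO1 (adjusted p = 0.0232) and SREBF2 (adjusted p = 0.0477) passed for foretinib against cabozantinib, 2 of 32 genes higher where DESeq2 called 0.712% of all genes higher. It called 86 genes higher and 532 lower in that comparison, whereas edgeR on the same reads called no gene.

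LSS, the lanosterol synthase that closes the sterol rings, was at 941, 1154 and 3039 in the foretinib libraries, 517, 533 and 736 in the cabozantinib libraries and 459, 956 and 1299 in the DMSO libraries. Foretinib lay above cabozantinib in every library but overlapped DMSO, and foretinib 4 was far above the rest. For foretinib against cabozantinib LSS had a log2 fold change of 1.34 (-0.09 to 2.77). CYP51A1, the lanosterol demethylase, averaged 3219 ± 634 with foretinib, 2766 ± 139.5 with cabozantinib and 2127 ± 828 with DMSO, with a log2 fold change for foretinib against DMSO of 0.65 (-0.08 to 1.37). SQLE, squalene epoxidase, ran the other way in its means, 3663 ± 1592 with foretinib, 4147 ± 778 with cabozantinib and 4789 ± 772 with DMSO, and its groups overlapped.

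The later enzymes overlapped between all groups. EBP, the sterol isomerase, averaged 2889.6 ± 677 with foretinib, 2732 ± 720.5 with cabozantinib and 2597 ± 428 with DMSO. DHCR7, the dehydrocholesterol reductase, averaged 2739.8 ± 1419 with foretinib, 1972 ± 880.2 with cabozantinib and 2091 ± 382 with DMSO. The means of the sterol reductase TM7SF2, the desaturase SC5D and the dehydrogenase NSDHL lay between 463 and 1712 in the 3 groups. None of these 5 genes was below an unadjusted p of 0.05 in any comparison. HSD17B7, a reductase of the demethylation steps, was low, at 0, 0 and 70.1 with foretinib, 27.8, 272 and 106 with cabozantinib and 0, 96.4 and 536 with DMSO, and its interval spans both directions in each comparison. STARD4, the sterol transfer protein, was at 4696, 1533 and 1993 in the foretinib libraries, 2413, 2052 and 1885 in the cabozantinib libraries and 3136, 2602 and 2221 in the DMSO libraries. The foretinib libraries of STARD4 held both the highest and the lowest value. Its log2 fold change was -0.11 for foretinib against DMSO (-0.99 to 0.77, limma adjusted p = 0.934), -0.32 for cabozantinib against DMSO (-1.20 to 0.56, limma adjusted p = 1.00) and 0.21 for foretinib against cabozantinib (-0.67 to 1.08, limma adjusted p = 0.851).

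Of the fatty acid genes, SCD, the stearoyl-CoA desaturase that introduces the first double bond, had the smallest p with foretinib. It was at 21613, 19154 and 16068 in the foretinib libraries, 10817, 16812 and 12689 in the cabozantinib libraries and 13291, 14209 and 11334 in the DMSO libraries. Foretinib lay above all DMSO libraries, whereas cabozantinib 4 exceeded foretinib 4. SCD averaged 18945 ± 2778 with foretinib, 13439 ± 3067 with cabozantinib and 12945 ± 1469 with DMSO. Its log2 fold change was 0.55 for foretinib against DMSO (0.13 to 0.96, limma adjusted p = 0.442), 0.51 for foretinib against cabozantinib (0.10 to 0.92, limma adjusted p = 0.428) and 0.04 for cabozantinib against DMSO (-0.38 to 0.45).

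FADS1, a desaturase of polyunsaturated fatty acids, had close values in all groups and, with SCD, the largest normalised counts of the set. It was at 14425, 14546 and 18611 in the foretinib libraries, 16744, 20828 and 16710.2 in the cabozantinib libraries and 14901, 15452 and 18015 in the DMSO libraries. All groups overlapped. The log2 fold change of FADS1 was 0.16 for cabozantinib against DMSO (-0.20 to 0.52, limma adjusted p = 1.00) and -0.03 for foretinib against DMSO (-0.39 to 0.33), the narrowest intervals of the set. FADS1 shares 490 bases of exon with FADS2 on the opposite strand in GENCODE 29. SCD and FADS1 together made up 25.6% to 32.5% of the summed count of the 32 genes in a library.

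The enzymes that feed and build the acyl chain stayed within narrow or overlapping ranges. ACLY, which makes cytosolic acetyl-CoA from citrate, averaged 8884 ± 1565 with foretinib, 8619 ± 588 with cabozantinib and 8617 ± 564 with DMSO. The log2 fold change of ACLY was 0.03 for foretinib against DMSO, with a 95% interval of -0.37 to 0.43. ACACA, the acetyl-CoA carboxylase, averaged 3261 ± 1258 with foretinib, 2895 ± 522 with cabozantinib and 2852 ± 601 with DMSO. FASN, fatty acid synthase, averaged 6949 ± 1959 with foretinib, 8860.1 ± 1421 with cabozantinib and 8068 ± 1492 with DMSO, with a log2 fold change for foretinib against cabozantinib of -0.38 (-0.90 to 0.15).

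The elongase ELOVL5 and the desaturase FADS2 each had 1 foretinib library far below the rest. ELOVL5 was at 1129.8, 5093 and 4964 with foretinib, 4528, 4085 and 4863 with cabozantinib and 3826, 5061 and 3859 with DMSO. FADS2 was at 4366, 1196 and 5552 with foretinib, 4876, 6259 and 3609 with cabozantinib and 4724, 4937 and 3721 with DMSO. The low library was foretinib 1 for ELOVL5 and foretinib 2 for FADS2. ELOVL6, the elongase of saturated chains, was at 0.822 in foretinib 1, against 1296 and 1275 in the other foretinib libraries, 393 to 1489 with cabozantinib and 733 to 956 with DMSO. ACSS2, the acetate-activating enzyme, was low in all groups, with means of 144 ± 124 with foretinib, 49.2 ± 32 with cabozantinib and 238 ± 195 with DMSO.

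**Figure D3:**
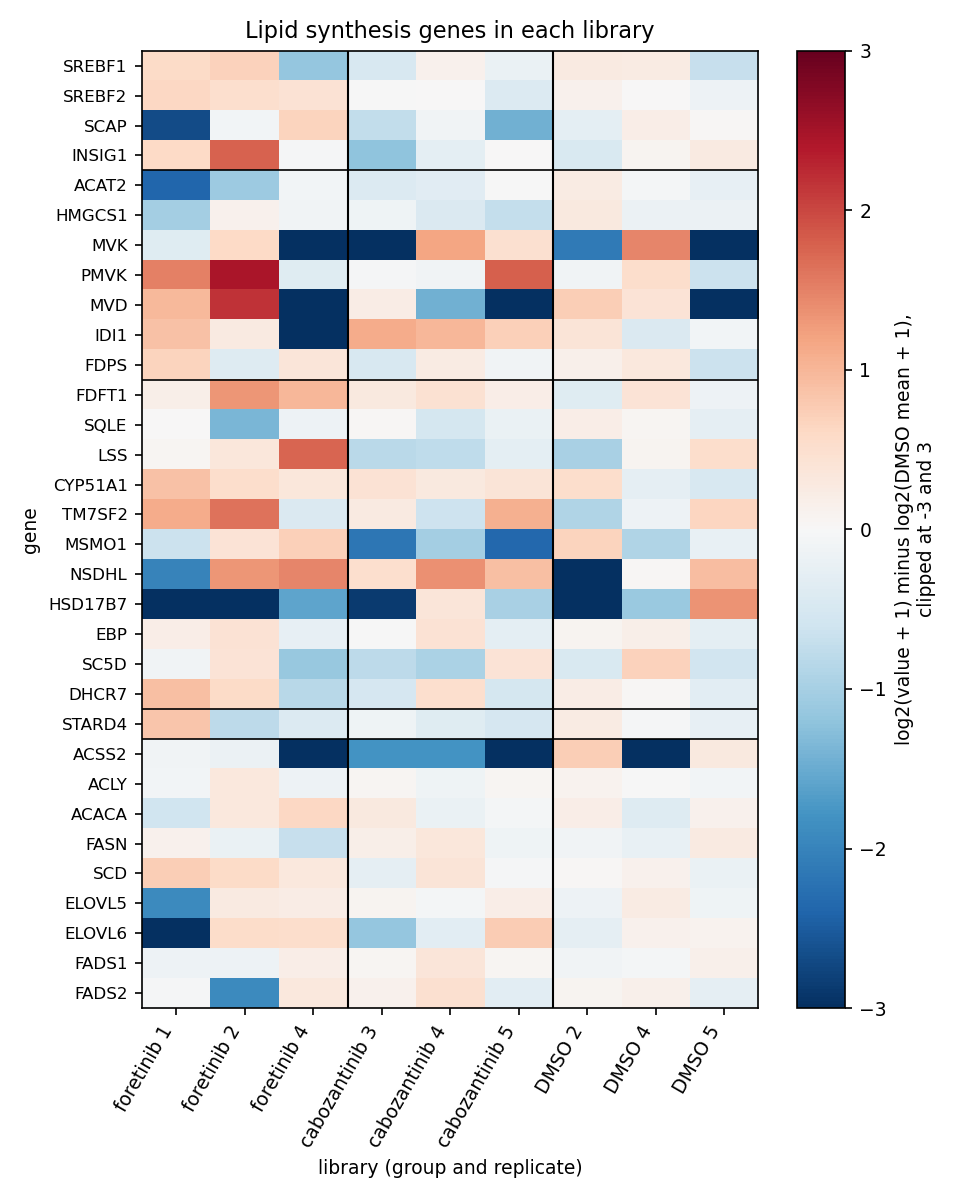
Log2 of each normalised count + 1 relative to the DMSO mean of the same gene, for the 32 genes in role order (down) and the 9 libraries (across), with colours limited to -3 and 3. No role group has 1 colour across all foretinib libraries, and the deepest colours fall on single libraries, such as ELOVL6 in foretinib 1 and IDI1 in foretinib 4.

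Spread within a group was larger with foretinib, for this gene set as for other genes. Among the 22 genes of the set at a mean of 1000 or more, the median coefficient of variation was 40.5% with foretinib, 19.5% with cabozantinib and 18.4% with DMSO. Over all 5488 genes at that level the medians were 39.9%, 19.7% and 23.2% in the same groups. Of 96 values of the 32 genes in each group, 4 were 0 with foretinib, 2 with cabozantinib and 2 with DMSO.

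Summed by role, the 11 enzymes from squalene to cholesterol had a larger total with foretinib, although none of them passed the adjusted threshold and 1, FDFT1, was below an unadjusted p of 0.05 against DMSO. Their summed normalised count was 23366, 26234 and 23219 in the foretinib libraries, 18145, 19774 and 18669 in the cabozantinib libraries and 19705, 19918 and 17569.5 in the DMSO libraries. Every foretinib sum exceeded every other, at 1.27 times the DMSO mean and 1.29 times the cabozantinib mean. With each library left out in turn these ratios were 1.22 to 1.30 and 1.23 to 1.32, and after quantile normalisation 1.20 and 1.21. The total is weighted to abundant genes, FDFT1 giving 42.9% of the difference of the means from DMSO. By gene, 8 of the 11 fold changes against DMSO were positive and 3 negative (SQLE, HSD17B7 and SC5D). The fatty acid sum was 60667, 62739 and 63597 with foretinib, 58970, 69348 and 58359 with cabozantinib and 57902, 58243 and 59140.0 with DMSO. Foretinib lay above DMSO in all libraries of this sum, by 1.07 times in the means, and SCD alone accounted for more than the difference of the means. After quantile normalisation the ratio was 1.00. The total normalised count of whole libraries was also higher with foretinib, at 2.80e+07, 2.90e+07 and 2.82e+07. It was 2.72e+07, 2.74e+07 and 2.79e+07 with cabozantinib and 2.74e+07, 2.74e+07 and 2.71e+07 with DMSO. The part of these library totals in the role sums was not tested. No test was made of these sums, because the genes were chosen with earlier results of these libraries known.

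The other role sums overlapped between groups. The regulators summed to 16977 ± 4791 with foretinib, 11368 ± 1842 with cabozantinib and 13026 ± 2342 with DMSO. The mevalonate enzymes summed to 11862 ± 2498 with foretinib, 11109 ± 169 with cabozantinib and 12737 ± 2395 with DMSO. The median log2 fold change for foretinib against DMSO was 0.32 over the 4 regulators, 0.27 over the 7 mevalonate enzymes, 0.31 over the 11 enzymes from squalene onward and -0.24 over the 9 fatty acid enzymes. For cabozantinib against DMSO the medians were -0.29, -0.07, 0.05 and 0.04 in the same order of roles, with all 4 regulators negative. For foretinib against cabozantinib they were 0.44, 0.10, 0.20 and -0.19, with all 4 regulators positive.

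**Figure D4:**
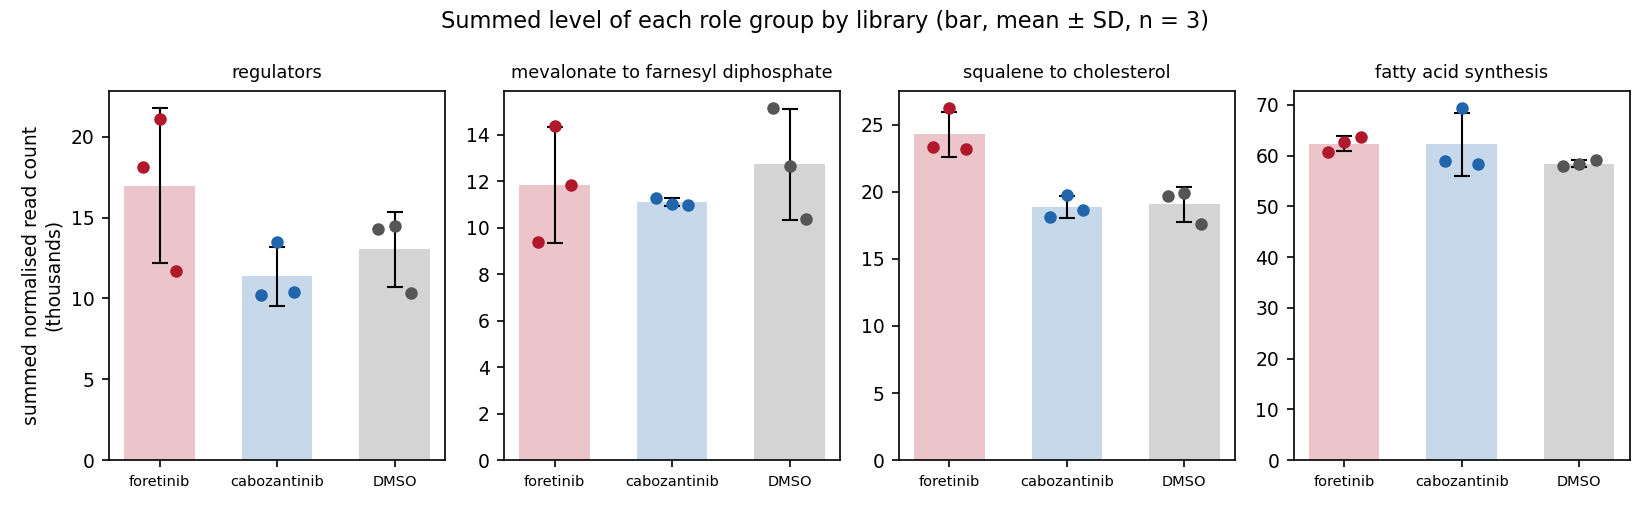
Summed normalised read counts (in units of 1000) of the genes of each of 4 roles per library, with group mean ± SD (n = 3), in the order foretinib, cabozantinib, DMSO. In the panel from squalene to cholesterol the 3 foretinib sums, 23219 to 26234, lie above the other 6, which reach 19918.

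Genes around the pathway were read from 6 further lists of 54 genes, covering SREBP processing and cofactors, LXR and sterol efflux, sterol uptake and traffic, the isoprenoid branch, other acyl-CoA enzymes and the supply of acetyl groups and NADPH. Of these, 52 were tested and none passed the adjusted threshold in any comparison. OXSM and ME1 did not reach the filter. For foretinib against DMSO, 0 of the 52 were higher and 2 lower (3.85%) at an unadjusted p below 0.05, against 2.17% and 6.9% of all tested genes. For cabozantinib against DMSO, 0 were higher and 0 lower, against 0.878% and 0.435% of all. For foretinib against cabozantinib, 4 were higher (7.69%) and 2 lower (3.85%), against 1.83% and 8.08% of all. The LXR and SREBP processing lists held none of them.

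ELOVL4, the elongase of very long chains, had the smallest p of these genes for foretinib against DMSO. It was at 76.5, 0 and 0 in the foretinib libraries, 412, 523 and 314 in the cabozantinib libraries and 205, 464 and 569.7 in the DMSO libraries. The foretinib libraries lay below all others, at log2 fold changes of -6.48 against DMSO (limma adjusted p = 0.442) and -6.58 against cabozantinib (limma adjusted p = 0.394). HACD2, a dehydratase of the elongation cycle listed under its older symbol PTPLB, was at 99.5, 2.88 and 510.2 with foretinib, 744, 622 and 998 with cabozantinib and 1035, 1049.7 and 805 with DMSO. Its log2 fold change was -4.03 for foretinib against DMSO (-7.35 to -0.72, limma adjusted p = 0.497) and -3.73 for foretinib against cabozantinib (-7.04 to -0.41, limma adjusted p = 0.474). The sizes of these fold changes depend on the pseudocount and on single libraries. With a pseudocount of 100, ELOVL4 was at -2.01 against DMSO and -2.08 against cabozantinib, and HACD2 at -2.19 and -1.91. The DESeq2 values were -4.02 and -4.03 for ELOVL4 and -2.24 and -1.96 for HACD2. HACD2 against DMSO was at -2.08 without foretinib replicate 2 and at -5.60 without foretinib replicate 4. ACSL4, an acyl-CoA synthetase, was the third by p for foretinib against DMSO, at 4387, 3017 and 1858 with foretinib, 3674, 3501 and 3402 with cabozantinib and 4119, 4494 and 4891 with DMSO. Every cabozantinib library of ACSL4 lay below every DMSO library, and foretinib overlapped both. Its log2 fold change for foretinib against DMSO was -0.63 (-1.30 to 0.04, limma adjusted p = 0.531).

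CS, the mitochondrial citrate synthase whose product feeds ACLY, was at 5982, 4389 and 4460.4 in the foretinib libraries, 3144, 2084 and 3733 in the cabozantinib libraries and 3617, 4189.9 and 4251 in the DMSO libraries. Foretinib lay above both other groups without overlap. For CS the log2 fold change was 0.75 for foretinib against cabozantinib (0.15 to 1.36, limma adjusted p = 0.425) and -0.47 for cabozantinib against DMSO (-1.07 to 0.14, limma adjusted p = 1.00). HACD3 of the elongation cycle, listed as PTPLAD1, was at 4784, 7532 and 4877 with foretinib, 5728, 5806 and 4731 with cabozantinib and 5139.6, 4007 and 3250.0 with DMSO. Its groups overlapped, and its log2 fold change for cabozantinib against DMSO was 0.41 (-0.16 to 0.98, limma adjusted p = 1.00). DHDDS, which starts dolichol synthesis from farnesyl diphosphate, was at 1579.5, 2168 and 1286 with foretinib, 562, 747 and 858 with cabozantinib and 1531, 1211 and 913 with DMSO. Each cabozantinib library of DHDDS lay below the other 6, at a log2 fold change against DMSO of -0.74 (-1.83 to 0.34, limma adjusted p = 1.00). SCARB1, PGD and DHDDS were the remaining genes higher at an unadjusted p below 0.05 for foretinib against cabozantinib, at log2 fold changes of 0.71, 0.69 and 1.20.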

How the data were processed

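The deposited values are of unit signal: for each gene, reads over a size factor that is constant within a library. In each of the 9 columns 100% of values were whole multiples of 1 step (tolerance 1e-06 of a read), which gave the whole reads and totals. Per the labels' protocols, RNA was treated with DNase, and NuGEN Encore Complete and KAPA kits made the libraries. Tools in the submitters' processing notes are HTSeq, DESeq2, TopHat2 2.0.13 and Cufflinks 2.2.1, with the build hs37d5. What each did, the annotation and the strand setting were not stated there. PCR duplicates were not told apart.

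Groups followed the treatment in the sample labels, and columns were matched to samples by title. Genes that reached 10 in 3 or more libraries (12642 of 23369, with 8208 at 0 throughout) were tested as log2(value + 1) with limma 3.58.1 (trend) in R 4.3.3. All 9 libraries were in 1 model without covariates, with Benjamini-Hochberg adjustment over all tested genes and a threshold of 0.05. Fold changes of genes near 0 depend on the pseudocount of 1. edgeR 4.0.16 and DESeq2 1.42.0 ran on the recovered reads as alternatives only, since the step lay too near 1 in 3 columns for an automatic check. The fit was also run on simulated counts. Their spread was set equal in all groups and below the median spread of each group here, most of all below that of foretinib. The run therefore does not measure how the fit performs at the spread of these libraries or where spread differs between groups. Other alternatives were pseudocounts, filters, scalings, a model of the 6 libraries compared, a replicate block and leaving out each library.

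Full statistics were given for genes of the set at an unadjusted p below 0.05, for the gene of each role with the smallest p, and for the 3 other pathway genes with the smallest p in each comparison. Values of SREBF1, INSIG1, LSS, IDI1 and further genes were added after their values were seen. The genes and lists were chosen with earlier results of these data known. GENCODE 29 (GRCh38) lengths and overlaps are of another build than hs37d5 and were joined by symbol. By GENCODE 29, 14 of the 32 genes share exon with a gene on the opposite strand, and 5 have pseudogenes named after them (FDPS 8, CYP51A1 3, HSD17B7 2, SCD and FADS2 1 each), whose reads the counting may have split.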

Additional observations from a re-analysis of the deposited data

How the results depend on the processing

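No gene of the set passed the adjusted threshold in limma under any alternative, nor in edgeR, which called 0 of all genes in each comparison. DESeq2 called 650 genes for foretinib against DMSO (117 higher, 533 lower), 47 for cabozantinib against DMSO (36 higher, 11 lower) and 618 for foretinib against cabozantinib (86 higher, 532 lower). Of the set it called 2, both for foretinib against cabozantinib, where 5 were below an unadjusted p of 0.05. Quantile normalisation called 1 gene for foretinib against DMSO, EGR1, which is not of the set (log2 fold change -2.85, adjusted p = 0.0146), and gave a fatty acid sum ratio of 1.00; it moved the median of all genes to -0.04 for foretinib against DMSO and -0.05 for foretinib against cabozantinib. The cause of these differences was not tested.

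Leaving out each library in turn gave 0 to 7 genes of the set at an unadjusted p below 0.05 for foretinib against DMSO, 0 to 1 for cabozantinib against DMSO and 1 to 9 for foretinib against cabozantinib. Their median log2 fold change ran between -0.058 (without DMSO replicate 5) and 0.30 (without foretinib replicate 4), between -0.17 (without DMSO replicate 5) and 0.058, and between -0.089 (without foretinib replicate 2) and 0.30 (without foretinib replicate 4) in the same comparisons. Of 384 alternative values of 24 named results, 377 kept their direction. The other 7 were of STARD4. For foretinib against DMSO its log2 fold change was 0.014 in edgeR, 0.045 in DESeq2 and between -0.59 and 0.22 with 1 library left out (positive without foretinib replicate 2, foretinib replicate 4 or DMSO replicate 2). For foretinib against cabozantinib it was between -0.27 (without foretinib replicate 1) and 0.54.

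Libraries with the same replicate number did not correlate outside the range of other pairs. Whether they share a culture or batch cannot be told from these correlations. Deviations from the group means correlated at -0.00223 to 0.0288 across genes in 5 pairs with the same number and at -0.0244 to 0.0308 in 22 other pairs. With a replicate block, 1 gene of the set was below an unadjusted p of 0.05 for foretinib against DMSO and 0 for cabozantinib against DMSO. The numbers 1 and 3 each occurred in a single library, foretinib 1 and cabozantinib 3. The block fits these libraries exactly, so they do not inform its comparisons, and few degrees of freedom remain. The block gave medians of -0.011 for foretinib against DMSO and -0.15 for foretinib against cabozantinib. It gave STARD4 -0.29 and SCD 0.08 for foretinib against cabozantinib. For the low genes MVK, MVD, HSD17B7 and ACSS2, no size of change within their intervals can be told from none, and how far depth limits them was not tested.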

Other observations

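Single libraries had values near 0 for genes that were well above 0 elsewhere. Among the 28 genes of the set at a mean of 500 or more, 3 values were below 10% of the median of the other 8 libraries. These were ELOVL6 in foretinib 1 at 0.822 against a median of 949.99, IDI1 in foretinib 4 at 6.27 against 561, and NSDHL in DMSO 2 at 40.8 against 874. A fold change that includes the named library depends on it: those of ELOVL6 and IDI1 with foretinib and those of NSDHL against DMSO. Because the spread was estimated from all libraries together, the intervals and p-values of these genes in the remaining comparison depend on it too.

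Sterol handling genes outside the set that separated groups, named after their values were seen, were NPC1, VLDLR and TMEM97. NPC1, the lysosomal cholesterol exporter, was at 1408, 811 and 1094 with foretinib, 542, 736 and 1081 with cabozantinib and 477, 264 and 745 with DMSO, so that foretinib lay above DMSO. VLDLR, a lipoprotein receptor, was at 310.0, 19.2 and 27.2 with foretinib, 668, 518 and 534 with cabozantinib and 402, 479 and 81.2 with DMSO, so that cabozantinib lay above both other groups. TMEM97, a regulator of NPC1, was at 414, 929 and 1528 with foretinib, 1984, 1426 and 1176 with cabozantinib and 982, 1071 and 881 with DMSO, so that cabozantinib lay above DMSO. Such separation was common: 3.99% of all tested genes were higher without overlap for foretinib against DMSO and 5.18% for cabozantinib against DMSO, against 2 of the 52 genes (3.85%) in each, and 9.7% of all were lower without overlap for foretinib against cabozantinib, against 3 of the 52 (5.77%). None of the 3 was below an unadjusted p of 0.05 in limma in any comparison.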
